A study of Mus musculus with 12 samples.

Results

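Autophagy genes were followed in the cerebellum of a mouse model of spinocerebellar ataxia type 7, a polyglutamine disease. The 9 genes were fixed by name: the cargo receptor gene Sqstm1, the ATG8 family genes Map1lc3a, Map1lc3b, Gabarap, Gabarapl1 and Gabarapl2, and the genes Becn1, Ulk1 and Wipi2, whose products start autophagosome formation. Of these, 8 had a row among the 7667 genes of the table, and Gabarapl2 was not analysed here. The 92Q groups were fxSCA7 92Q mice aged 29 or 12 weeks, which carry ataxin-7 with 92 CAG repeats, and the wild-type groups were littermates of the same ages with a repeat of normal length. Which promoter drives the expanded allele, and in which cells, is not stated in the labels. Each of the 4 groups had 3 RNA libraries, and each library pooled the cerebella of 3 mice.

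The authors deposited 1 normalized score per gene and group, rounded to whole numbers, so no spread between libraries can be computed and no test was made. Each difference below therefore has no replicate check, and "higher" and "lower" describe 4 values per gene. A difference was called larger than rounding when moving both scores by 0.5 towards each other did not close it. The unit of the score and the read depth behind it are unknown. Whether it is scaled to gene length is not stated, so scores were compared within a gene and not between genes. The ataxin-7 gene itself was not analysed here. Cerebellar identity was plain in the marker genes: Pcp2, a Purkinje cell gene, scored 871 in 92Q and 1324 in wild type at 29 weeks, and the granule neuron receptor gene Gabra6 scored 337 in 92Q and 346 in wild type. One of the 29-week 92Q libraries carries a library number apart from the others, and it has no value of its own here. Sex-linked genes also differed. Eif2s3y, on the Y chromosome, scored 15 in 92Q and 6 in wild type at 29 weeks, and 12 in 92Q with a value listed at 0 in wild type at 12 weeks, so a difference of sex between the pools and that of genotype cannot be told apart.

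Autophagy encloses cytoplasm in a double membrane, the autophagosome, which then fuses with a lysosome. The ULK1 kinase starts the process, the lipid kinase complex built on Beclin 1 makes the phosphoinositide that WIPI2 binds, and WIPI2 brings in the enzymes that attach ATG8 proteins to membrane lipid. Receptors such as p62, the product of Sqstm1, hold ubiquitin-marked cargo with one part and ATG8 proteins with another. Inclusions of polyglutamine proteins are known to contain ubiquitin and p62. Amounts of these proteins, and of lipid-bound LC3, were not measured in these files.

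Sqstm1 was the only receptor among the 8 genes. It scored 204 in 92Q and 190 in wild type at 29 weeks, and 182 in 92Q and 184 in wild type at 12 weeks. The older 92Q group thus had the highest score of the 4, while both 12-week groups lay close together. The score was 7.37% higher in 92Q at 29 weeks (log2 ratio 0.10, rounding range 0.09 to 0.11). At 12 weeks it was 1.09% lower (log2 ratio -0.02), a direction that turned to 0.02 after upper quartile scaling or quantile normalization and to 0.01 after scaling by column sums. Between ages, Sqstm1 was 12.1% higher at 29 than at 12 weeks in 92Q (log2 ratio 0.16) and 3.26% higher in wild type (0.05). The gene lies on the minus strand of chromosome 11 at 50199366 to 50210827 (mm10, GENCODE M21). It overlaps Mrnip on the other strand, and 18.3% of the distinct 50-base windows of its transcripts also occur in Mrnip, so reads there could have gone to either gene. The promoter is printed because Sqstm1 had the largest ratio of 29 over 12 weeks in 92Q among the 8 genes. It is RefSeq sequence on GRCm38.p6, chr11:50210801-50211070, minus strand, from 250 bases before the RefSeq start to 20 after it, and the capitals mark 3 GC boxes (GGGCGG on either strand).
Sqstm1: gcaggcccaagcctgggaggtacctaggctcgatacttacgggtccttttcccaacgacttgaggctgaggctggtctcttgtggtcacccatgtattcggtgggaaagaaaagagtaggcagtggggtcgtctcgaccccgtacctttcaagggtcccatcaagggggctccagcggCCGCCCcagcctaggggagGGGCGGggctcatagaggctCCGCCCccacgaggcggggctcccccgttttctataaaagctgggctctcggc

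The ATG8 genes encode small ubiquitin-like proteins that become bound to membrane lipid and serve as docking sites for receptors. All 4 measured members were higher in 92Q than in wild type at 29 weeks, by 4.89% to 9.52%. Of all genes 49.5% were higher by any amount, as were 52.5% of those at a score of 25 or more in every group. Higher beyond rounding were all 4 members, 27.1% of all genes and 39.3% of those at 25 or more. The LC3 genes came first in size. Map1lc3b, whose product is the usual marker of autophagosomes, scored 69 in 92Q and 63 in wild type at 29 weeks, and 72 in both genotypes at 12 weeks. Map1lc3a scored 149 in 92Q and 137 in wild type at 29 weeks, and 148 in 92Q and 156 in wild type at 12 weeks. For both LC3 genes the 29-week wild-type score was the lowest of the 4. The 29-week log2 ratios of 92Q over wild type were 0.13 for Map1lc3b and 0.12 for Map1lc3a, with rounding ranges of 0.11 to 0.15 and 0.11 to 0.13.

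The GABARAP branch of the family is known for a part in the later growth and closure of autophagosomes. Gabarap scored 193 in 92Q and 184 in wild type at 29 weeks, and 187 in 92Q and 196 in wild type at 12 weeks. Its 12-week wild-type score was the highest of the 4 and its 29-week wild-type score the lowest. Gabarapl1 scored 223 in 92Q and 210 in wild type at 29 weeks, and 204 in 92Q and 209 in wild type at 12 weeks. Its pattern was that of Sqstm1, with the older 92Q group above 3 groups that differed by at most 6 score units. The 29-week log2 ratios were 0.07 for Gabarap and 0.09 for Gabarapl1, both larger than rounding.

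Map1lc3a lies on chromosome 2 at 155276297 to 155278073, Map1lc3b on chromosome 8 at 121590361 to 121598760, Gabarap on chromosome 11 at 69991143 to 69994951 and Gabarapl1 on chromosome 6 at 129533160 to 129542346, all on the plus strand as protein-coding genes (mm10, GENCODE M21). No 50-base window of Map1lc3a or Gabarap occurred in a transcript of another gene. For Map1lc3b 6.58% of the windows did, most of them in the processed pseudogene Gm6055 (5.34%). For Gabarapl1 the share was 23.1%, all in 1700101I11Rik on the other strand. How the authors assigned such reads, and whether by strand, is not stated, so these scores are uncertain to that extent.

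Promoters of both branches are shown to set a GC-rich promoter beside an AT-richer one. They are RefSeq sequence on GRCm38.p6, plus strand, from 250 bases before the start to 20 after it, at chr8:121590188-121590457 for Map1lc3b and chr6:129532942-129533211 for Gabarapl1. Capitals mark GC boxes and, as the last capitals of Map1lc3b, a match to the antioxidant response core TGACNNNGC.
Map1lc3b: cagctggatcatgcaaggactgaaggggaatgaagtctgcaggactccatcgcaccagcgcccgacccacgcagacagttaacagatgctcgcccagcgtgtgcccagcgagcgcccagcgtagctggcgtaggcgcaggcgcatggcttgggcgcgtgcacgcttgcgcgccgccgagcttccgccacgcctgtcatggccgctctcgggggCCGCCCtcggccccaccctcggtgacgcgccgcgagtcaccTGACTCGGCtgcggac
Gabarapl1: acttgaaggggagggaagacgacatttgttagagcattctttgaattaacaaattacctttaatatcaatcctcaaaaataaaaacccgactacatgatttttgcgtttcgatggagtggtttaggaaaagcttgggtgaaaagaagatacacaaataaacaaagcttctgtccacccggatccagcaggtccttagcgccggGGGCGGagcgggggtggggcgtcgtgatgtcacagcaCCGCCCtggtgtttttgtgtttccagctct

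RefSeq promoters were found for 7 of the 9 genes. Over the 300 bases from 250 before to 50 after the start, G and C made up 68.0% in Map1lc3b and 46.3% in Gabarapl1, with a median of 52.7% over all 32851 promoters of the table. None of the 7 held CACGTG, the core of the element bound by the lysosomal regulator TFEB, which 7.15% of all promoters hold. None held GTAAACAA, the 1 form of the FOXO element searched (1.23%), and other forms of it were not searched. The antioxidant response core, the letters bound by NRF2 with its partners, was found in Map1lc3b alone of the 7 and in 12.4% of all promoters. It began at base 5 of the transcribed part. The GC box, a motif searched after the sequences had been seen, was found in 6 of the 7, all but Gabarap, and in 35.7% of all promoters. Both strands were searched for each motif. These are descriptions of letters within the window and not of binding.

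Becn1, Ulk1 and Wipi2 act earlier, and their low scores leave them open to rounding. Becn1, the scaffold of the lipid kinase complex, scored 32 in 92Q and 33 in wild type at 29 weeks, and 33 in 92Q and 34 in wild type at 12 weeks. None of these steps exceeded rounding. Becn1 overlaps Cntd1 on the other strand, and 45.4% of its 50-base windows occur in transcripts of other genes, Cntd1 foremost. Wipi2 scored 32 in 92Q and 30 in wild type at 29 weeks (log2 ratio 0.09, rounding range 0.05 to 0.14), and 30 in 92Q and 31 in wild type at 12 weeks, where the difference did not exceed rounding. Ulk1 scored 29 in 92Q and 28 in wild type at 29 weeks, within rounding. At 12 weeks Ulk1 scored 30 in 92Q and 27 in wild type, 11.1% higher (log2 ratio 0.15, rounding range 0.10 to 0.20). This was the one genotype ratio among the 8 genes past 1.1-fold, and 9.02% of all genes compared at 12 weeks were as far apart or farther. Becn1 lies on chromosome 11 at 101285952 to 101302286 and Ulk1 on chromosome 5 at 110784488 to 110810097, both on the minus strand. Wipi2 lies on the plus strand of chromosome 5 at 142627698 to 142670588.

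**Figure D1:**
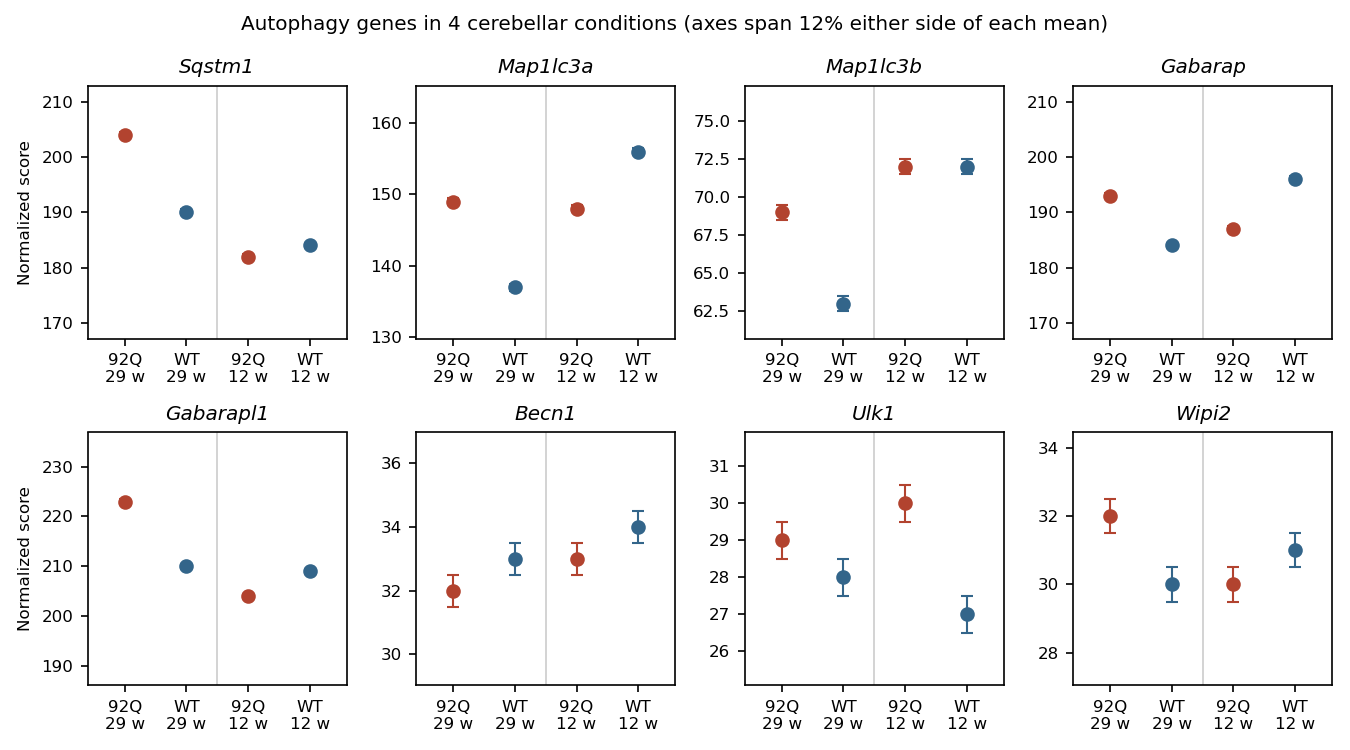
Normalized score of each gene (y axis, a separate scale per panel spanning 12% either side of its mean and not starting at 0) in 92Q and wild type (WT) cerebellum at 29 and 12 weeks. Each point is the authors' single value for a group, red for 92Q and blue for wild type, and bars show the rounding of 0.5 either way. At 29 weeks the red point lies above the blue one in every panel but that of Becn1.

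Taking the 8 genes together, 92Q and wild type differed little at 29 weeks, and in one direction for most of them. The scores were higher in 92Q for 7 genes and lower for Becn1, and 6 of the higher values exceeded rounding. The median log2 ratio was 0.09, beside 0.00 over all 7666 genes compared. None of the 8 reached 1.1-fold, while 23.5% of all genes did, 15% upwards and 8.47% downwards. None reached 1.5-fold at either age, as 1.27% of all genes did at 29 weeks and 0.248% at 12 weeks. Scores higher by any amount were found for 49.5% of all genes, and higher beyond rounding for 27.1%. Rounding weighs more on low scores. Among the 3258 genes at 25 or more in every group, as all 8 were, 39.3% were higher beyond rounding and the median was 0.02. Of the same genes 52.5% were higher by any amount. At least 1.1-fold apart were 19.3% of them, 10% upwards and 9.3% downwards. Of those genes 21.3% lay as far from 0 as Map1lc3b or farther, and 47.4% as far as Gabarap or farther. The 7 positive ratios kept their sign under all 3 scalings planned and the 1 added later, and the median ranged from 0.06 to 0.09.

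At 12 weeks the 8 genes lay near wild type. The score was lower in 92Q for 6 genes (36.7% of all genes and 47.1% of those at 25 or more in every group). It was equal for Map1lc3b and higher for Ulk1 (32.1% and 35.8% higher). The median log2 ratio was -0.04, beside 0.00 over all 7660 genes compared. Lower values beyond rounding were found for 4 of the 8, Sqstm1, Map1lc3a, Gabarap and Gabarapl1, and for 18.7% of all genes, or 32.7% of those at 25 or more in every group. Ulk1 was the 1 gene higher beyond rounding (11.3% of all genes and 20% of those at 25 or more). It was also the 1 gene at least 1.1-fold higher (4.5% and 1.72%), and none was at least 1.1-fold lower (8.02% and 7.09%). Map1lc3a differed from wild type by -5.13% and Gabarap by -4.59%, with log2 ratios of -0.08 and -0.07. Both kept that sign under every scaling run, although quantile normalization brought them to -0.0193 and -0.0057. Gabarapl1 at -0.03 turned to 0.01 after quantile normalization.

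**Figure D2:**
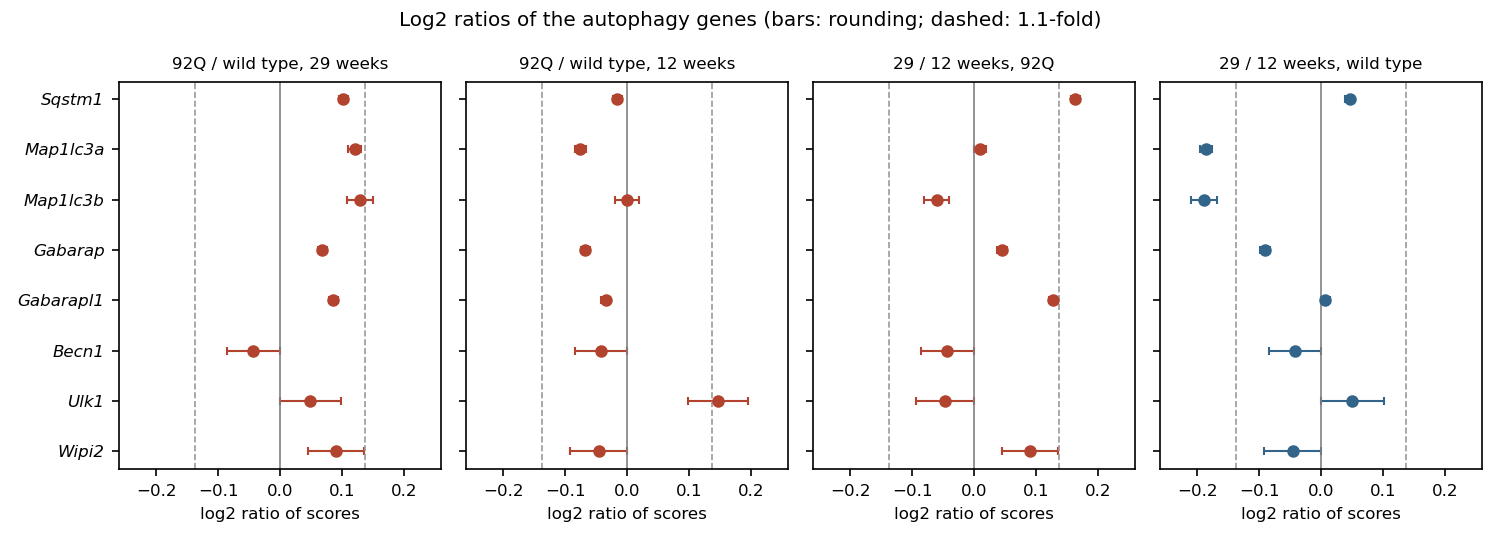
Log2 ratios of scores (x axis) for the 8 genes (rows) in the genotype comparisons at 29 and 12 weeks and in the comparisons of 29 with 12 weeks within 92Q and within wild type. Points are single ratios with a pseudocount of 1, bars the range that rounding allows, and dashed lines mark 1.1-fold. At 29 weeks every genotype ratio lies inside the dashed lines, while the LC3 genes pass the lower line in the age comparison of wild type, at -0.19 each.

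The genotype ratios of the 2 ages share no library, so they can be set beside each other. For 4 genes, Sqstm1, Map1lc3a, Gabarap and Gabarapl1, 92Q was above wild type at 29 weeks and below it at 12 weeks, in each case beyond rounding. Such a change of direction was found for 7.12% of all 7659 genes compared at both ages and for 14.1% of those at 25 or more in every group. The difference of the log2 ratios, 29 minus 12 weeks, was 0.20 for Map1lc3a, 0.14 for Gabarap and Wipi2, 0.13 for Map1lc3b and 0.12 for Sqstm1 and Gabarapl1. It was -0.0012 for Becn1 and -0.10 for Ulk1, the 2 genes below 0 (36% of all genes). Its median over the 8 genes was 0.13, beside 0.00 over all genes and 0.03 over those at 25 or more in every group. The median of the 8 genes was between 0.08 and 0.09 after upper quartile scaling, quantile normalization or scaling by column sums. Map1lc3a was the 1 gene whose difference corresponded to 1.1-fold or more upwards (20.4% of all genes), and none reached 1.5-fold (0.966%).

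**Figure D3:**
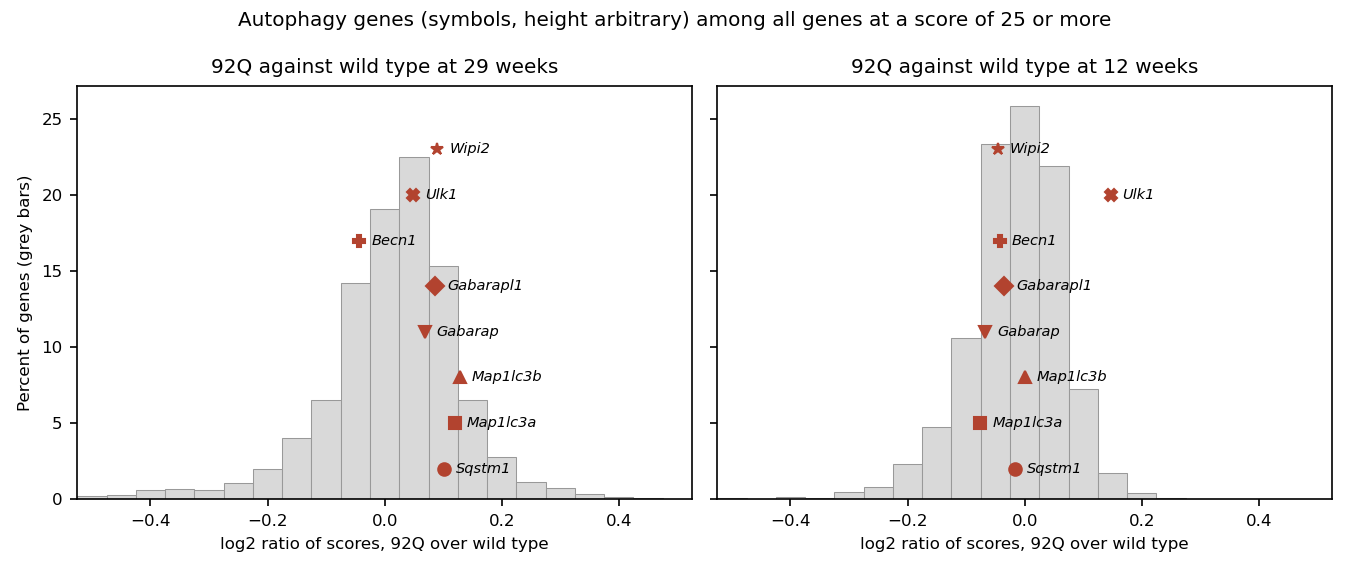
Share of the 3258 genes at a score of 25 or more in every group (y axis, percent, grey bars) by log2 ratio of 92Q over wild type (x axis, bins of 0.05) at 29 and 12 weeks. Red symbols mark the 8 genes at their log2 ratio, and their height has no meaning. At 29 weeks 7 symbols lie right of 0 within the body of the distribution, and at 12 weeks Ulk1 stands at its right edge with 0.15.

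With age the directions were mixed. The age comparisons reuse the columns of the genotype comparisons and are not separate evidence. Library numbers of the 12-week and 29-week groups fall in separate ranges, so age and library series cannot be told apart. In wild type, Eif2s3y was listed at 0 at 12 weeks and scored 6 at 29 weeks. A difference of sex between those pools and that of age cannot be told apart either. In 92Q, scores at 29 weeks were above those at 12 weeks for 5 genes (42.4% of all genes and 40.8% of those at 25 or more). They were below for 3 (35.4% and 46.3%). The median log2 ratio of the 8 genes was 0.03 beside 0.00 over all genes. Beyond rounding 4 were higher (23.6% of all 7667 genes compared and 29.7% of those at 25 or more in every group) and 1, Map1lc3b, was lower (20.9% and 35.8%). The ratio of Map1lc3a, within rounding at 0.01, turned to -0.0014 after scaling by median ratios. Sqstm1 alone reached 1.1-fold (15.2% of all genes were at least 1.1-fold higher). In wild type, 29-week scores were above 12-week scores for 3 genes (32.5% of all genes and 31.1% of those at 25 or more). They were below for 5 (45.9% and 57.7%). Of these 5, Becn1 and Wipi2, both within rounding, turned to 0.0057 and 0.0016 after scaling by column sums. Map1lc3a differed by -12.2% and Map1lc3b by -12.5% at 29 against 12 weeks, the 2 genes past 1.1-fold, where 17.1% of all 7663 genes, and 19.3% of those at 25 or more in every group, were at least 1.1-fold lower. None of the 8 reached 1.5-fold in either genotype (1.46% of all genes in 92Q and 0.365% in wild type). With Gabarap, at -6.12%, 3 genes were lower beyond rounding, beside 29% of all genes and 47.1% of those at 25 or more. Sqstm1 was the 1 gene higher beyond rounding (16.2% and 20.9%). The wild-type median was -0.04, as it was over the genes at 25 or more, and 0.0037 after scaling by column sums. After quantile normalization neither LC3 gene reached 1.1-fold in wild type.

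Across the 4 groups the genes fell into a few shapes. The 29-week 92Q score stood above the other 3 for Sqstm1, Gabarapl1 and Wipi2, as it did for 26.2% of all genes. The 29-week wild-type score stood below the other 3 for Map1lc3a, Map1lc3b and Gabarap, as it did for 21.2% of all genes. The 12-week 92Q score was the highest of the 4 for Ulk1 (9.86% of all genes) and the lowest for Sqstm1 and Gabarapl1 (7.93%), and the 29-week wild-type score was the highest for none (7.8%). The first 2 shapes give a positive genotype ratio at 29 weeks. The highest score exceeded the lowest by 14.3% for Map1lc3b, 13.9% for Map1lc3a, 12.1% for Sqstm1 and 11.1% for Ulk1, and by 6.25% to 9.31% for the others. A log2 range no wider than that of Map1lc3b was found for 66.3% of all genes.

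Map1lc3b had the widest log2 range, and the genes with the pattern nearest to it were ranked by the Euclidean distance between log2 scores centred over the 4 groups, among the 4105 other genes at 20 or more in every group. The nearest 5 were Abhd17b, Ndufb10, Rxrb, Cmtm5 and Amph, at distances of 0.0044 to 0.0252. Ndufb10, a subunit of respiratory complex I, scored 173 in 92Q and 159 in wild type at 29 weeks, and 180 in 92Q and 179 in wild type at 12 weeks. Among the other 7 of the 8 genes Map1lc3a came nearest, at rank 155 with a distance of 0.0652, and Sqstm1 was farthest, at rank 3249. With 4 values per gene many patterns lie this close.

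Other genes of the pathway gave a comparison within autophagy. Lists of 82 further genes held 69 with a score. At 29 weeks 35 of the 69 were higher in 92Q, which is 50.7% beside 49.5% of all genes. Lower were 10 of the 69, beside 26.1% of all genes, and the median log2 ratio of the 69 was 0.03. At least 1.1-fold higher were 11 (15.9%, beside 15% of all genes) and at least 1.1-fold lower was 1 (8.47% of all genes). Pik3r4 and Atg7 are among the 11 and have a row through 92Q at 29 weeks alone, and without them 9 of 67 were at least 1.1-fold higher (13.4%) and the median was 0.00. Both shares of higher genes lie near those of all genes, while the shares of lower genes are smaller than those of all genes. Beyond rounding 20 of the 69 were higher, beside 27.1% of all genes, and 3 were lower, beside 14.5% of all genes. None of the 69 reached 1.5-fold, as 1.27% of all genes did. At 12 weeks 26 were higher, beside 32.1% of all genes, and 24 lower, beside 36.7% of all genes, with a median of 0.00.

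The genes of fusion with lysosomes had the highest median of the 7 lists at 29 weeks, 0.11 over 14 genes. Of these, 10 were higher in 92Q and 1 lower, and 5 were at least 1.1-fold higher, beside 49.5%, 26.1% and 15% of all genes. This list was singled out after its values were seen. Vamp8, a SNARE protein of fusion, scored 40 in 92Q and 34 in wild type at 29 weeks (log2 ratio 0.23). Lamp2, a lysosomal membrane protein, scored 53 in 92Q and 46 in wild type (0.20). Vps16 and Vps33a, subunits of the tethering complex HOPS, scored 15 and 30 in 92Q against 13 and 27 in wild type. Lamp2 was also 0.26 higher at 29 than at 12 weeks within 92Q, with scores of 53 and 44. At 12 weeks the median of the list was 0.02 and none of the 14 was past 1.1-fold.

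Cargo receptors other than p62 had a median of 0.03 over 14 genes at 29 weeks, 9 higher and 3 lower. Calcoco1, a receptor in turnover of the endoplasmic reticulum, scored 31 in 92Q and 28 in wild type, and was the 1 gene of the list past 1.1-fold. Retreg1, another receptor of that kind, which the table gives under its older symbol Fam134b, scored 24 in 92Q and 22 in wild type. Phb2, a mitochondrial receptor, scored 42 in 92Q and 39 in wild type. Tollip, which binds ubiquitin and LC3, scored 64 in 92Q and 69 in wild type, the lowest ratio of the list at -0.11.

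Upstream regulators had a median of 0.02 over 16 genes at 29 weeks, with 8 higher, 1 lower and 7 equal. Keap1, which holds NRF2 back and is bound by p62, scored 22 in 92Q and 19 in wild type (log2 ratio 0.20). Nfe2l2, the gene of NRF2, scored 20 in 92Q and 18 in wild type at 29 weeks and 15 in both at 12 weeks. Tfeb scored 12 in 92Q and 11 in wild type at both ages, within rounding. Rheb, an activator of the kinase mTOR, which restrains autophagy, scored 51 in 92Q and 57 in wild type at 29 weeks and 56 in 92Q and 61 in wild type at 12 weeks, and was the 1 gene of the 69 at least 1.1-fold lower at 29 weeks.

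Of the genes that act before or in ATG8 attachment, the lipid kinase list had a median of 0.06 at both ages. The other lists had a median of 0.00 at 29 weeks. In the ULK complex list 1 of 4 genes was higher and 3 were equal, and Ulk2, the relative of Ulk1, scored 21 in 92Q and 19 in wild type, beside 20 in 92Q and 18 in wild type at 12 weeks. The other 3, Atg13, Atg101 and Rb1cc1, had equal scores in both genotypes at 29 weeks. At 29 weeks the 0.06 of the lipid kinase list was over 5 genes, 3 higher, Pik3r4 among them, 1 lower and 1 equal. This median was the ratio of Rubcn, which lay within rounding. In this list Ambra1, which binds Beclin 1, scored 26 in 92Q and 24 in wild type. Pik3c3, the catalytic subunit, scored 12 in 92Q and 13 in wild type. Rubcn, a negative regulator listed under an older symbol, scored 24 in 92Q and 23 in wild type. The WIPI, ATG2 and ATG9 list had a median of 0.00 over 8, with Wdr45, a relative of WIPI2, at 22 in 92Q and 20 in wild type, its relative Wdr45b at 14 and 13, the lipid transfer gene Atg2b at 11 and 12, and Zfyve1 at 17 and 16. The conjugation enzymes had a median of 0.00 over 8, of which 5 were equal in both genotypes, Atg12 among them at 26. Atg16l1 scored 14 in 92Q and 15 in wild type, and the protease gene Atg4b 20 in 92Q and 21 in wild type. Pik3r4 and Atg7 scored 10 in 92Q and 9 in wild type, and a score of 10, the least that gives a gene a row, was met by each in the older 92Q group alone, which therefore had to be their highest.

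**Figure D4:**
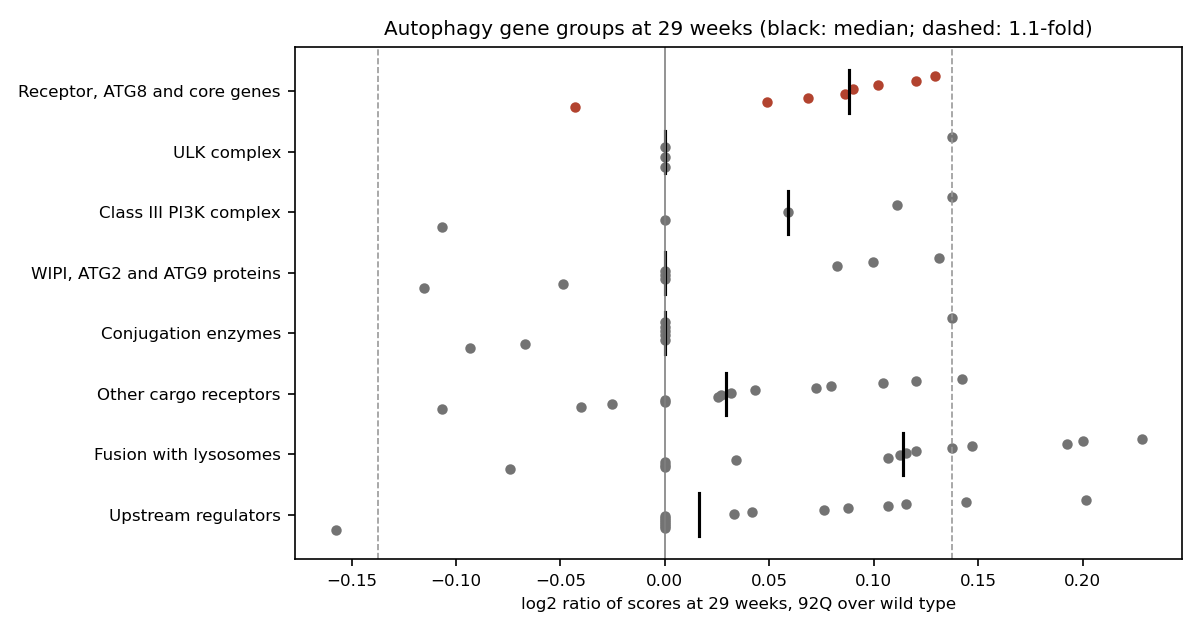
Log2 ratio of 92Q over wild type at 29 weeks (x axis) for the 8 genes (red) and for 7 lists of other autophagy genes (grey, rows). Each point is 1 gene, black bars are medians and dashed lines mark 1.1-fold. The bars of the 8 genes and of the fusion list lie at 0.09 and 0.11, and the others between 0.00 and 0.06.

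Markers of several cell types differed between the same groups, and in bulk tissue fewer cells of a type and less RNA per cell cannot be told apart. At 29 weeks the microglia list was higher in 92Q for 8 of 8 genes, of which 3 have a row only through 92Q at 29 weeks, with a summed score of 291 in 92Q and 132 in wild type. Without those 3 the sums were 245 in 92Q and 112 in wild type, with 5 of 5 higher. Tyrobp scored 37 in 92Q and 12 in wild type, and Cd68, one of the 3, scored 20 in 92Q and 6 in wild type. Purkinje cell markers were lower for 9 of 9 genes, summing to 2934 in 92Q and 4841 in wild type, with Gng13 at 386 against 759 and Pcp4 at 843 against 1432. Granule neuron markers were lower for 7 of 8 (2026 in 92Q and 2236 in wild type), with Chn2 at 255 against 300 and Neurod1 at 281 against 319. Oligodendrocyte markers were higher for 7 of 8 (4242 in 92Q and 3970 in wild type), where Opalin was 26 against 18 and Mog, a myelin gene, 60 against 46. Astrocyte and Bergmann glia markers were higher for 4 of 8 (2353 in 92Q and 2517 in wild type), where Gfap was 235 against 95 and Aldoc 924 against 1227. Aldoc, which encodes zebrin II, is also made by Purkinje cells. Without Aldoc the astrocyte and Bergmann glia list summed to 1429 in 92Q and 1290 in wild type. That difference was about as large as the difference of Gfap alone. Of the 7 genes left, 4 were higher and 3 lower. Endothelial markers were higher for 1 of 3 (35 in 92Q and 33 in wild type), Cldn5 at 13 against 11, and Flt1 was 10 in both. No marker of these lists was at 0. The part of these cell types in the autophagy values was not tested.

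Choroid plexus signal moved as well, and in opposite directions at the 2 ages. The 6 measured markers summed to 1473 in 92Q and 478 in wild type at 29 weeks, and to 20 in 92Q and 364 in wild type at 12 weeks. All 6 were higher at 29 weeks, with Ttr at 1403 against 445 and Sostdc1 at 12 against 3, although 4 of them have a row only through 92Q at 29 weeks, Sostdc1 among them. At 12 weeks Sostdc1 and Kl were listed at 0 in 92Q. Purkinje markers at 12 weeks summed to 4465 in 92Q and 5831 in wild type, and microglia markers to 116 in 92Q and 117 in wild type. The summed 12-week scores were 2543 in 92Q and 2435 in wild type for granule neurons, 3708 in 92Q and 3950 in wild type for oligodendrocytes, 2381 in 92Q and 2634 in wild type for astrocytes and Bergmann glia, and 35 in both for endothelium. Whether choroid plexus tissue adds to the autophagy scores was not tested.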

How the data were processed

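Cerebellar total RNA was sequenced from 12 libraries, 3 per group, each from a pool of 3 mice. Per the submitters' processing notes, the build was mm10 and the authors' tools included Cuffdiff 1.3.0, Bowtie 0.12.7 and SAMtools 0.1.12a; no annotation, normalization or role of a tool is stated. The deposited values are a score per gene and group, whole numbers with a median of 22 in each group, read as normalized and rounded values and not as counts. Depth is therefore unknown and no interval that needs it was computed. Of 7684 rows 17 carried spreadsheet date numbers and were left out. Every row reached 10 in 1 or more groups.

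Log2 ratios used a pseudocount of 1, which understates ratios of low genes, for genes at 5 or more in 1 or both groups (Python 3.11.15, pandas 2.3.3, numpy 2.4.6, figures with matplotlib 3.10.9). The ratio step was tested on simulated data. The 1.1-fold and 1.5-fold thresholds describe size only. The members and lists were chosen with earlier results of these data known. Text names all members, per pathway list the 4 largest and per marker list the 2 largest absolute ratios at 29 weeks, and the 5 nearest patterns; Mrnip, Cntd1, Pcp2, Gabra6, Eif2s3y, Kl and other neighbours were named after their values were seen. Of 82 pathway genes 69 matched, 2 by older RefSeq symbols. Windows of 50 bases, the read length, were compared with GENCODE M21 transcripts on both strands. Alternatives were pseudocounts of 0.1 and 5, other minimum scores, a fold of 1.5 and 4 scalings, of which scaling by column sums was added after the data were seen.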

Additional observations from a re-analysis of the deposited data

Results flagged for a closer look

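For 4 genes 92Q lay above wild type at 29 weeks and below it at 12 weeks, each time beyond rounding. The 29-week minus 12-week difference of the log2 ratios was 0.20 for Map1lc3a, 0.14 for Gabarap, 0.12 for Sqstm1 and 0.12 for Gabarapl1. With 1 value per group this difference was not tested. For Sqstm1 the 12-week sign turned under 3 scalings and for Gabarapl1 under 1. Among these 4 genes both signs thus held under every scaling for Map1lc3a and Gabarap alone. Only the sign is meant, as the 12-week ratio of Gabarap was -0.0057 after quantile normalization.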

How the results depend on the processing

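No replicate could be left out and no paired analysis was possible because the tables hold 1 value per group. The median log2 ratio of the 8 genes at 29 weeks, 92Q against wild type, was 0.0882 and became 0.0608 after scaling by median ratios. At 12 weeks it was -0.0383 and became -0.000205 after quantile normalization. For 29 against 12 weeks it was 0.0275 in 92Q, with 0.0164 after scaling by median ratios and 0.0621 after quantile normalization, and -0.0438 in wild type, with 0.0037 after scaling by column sums. Set against each other across ages, the genotype ratios differed with a median of 0.125, with 0.0907 after upper quartile scaling, 0.0800 after quantile normalization and 0.0798 after scaling by column sums. The count of genes past 1.1-fold was 0 at 29 weeks under every alternative, and at 12 weeks 1, or 0 with a pseudocount of 5 or a fold of 1.5. Between ages it was 1 in 92Q and 0 at 1.5-fold, and in wild type 2, with 0 after quantile normalization or at 1.5-fold and 1 after scaling by column sums. Single ratios beyond rounding that turned sign were those at 12 weeks of Sqstm1, to 0.0189 after upper quartile scaling, 0.0189 after quantile normalization and 0.0149 after scaling by column sums, and of Gabarapl1, to 0.0053 after quantile normalization. Within rounding, 3 more turned between ages: Map1lc3a in 92Q, to -0.0014 after scaling by median ratios, and Becn1 and Wipi2 in wild type, to 0.0057 and 0.0016 after scaling by column sums. Of 320 single values under the alternatives, 248 stayed within their rounding range, 68 moved beyond it, the 3 within-rounding turns included, and 4 turned a sign that was beyond rounding. All moves and turns fell under the 4 scalings, since the pseudocounts and minimum scores left all 40 values per setting in range. Of 40 values each, 26 stayed after upper quartile scaling and 23 after scaling by median ratios. After quantile normalization 20 stayed, and after scaling by column sums 19. Minimum scores changed none of these values. Scalings moved the median of all genes by at most 0.0449. The cause of these shifts was not tested. Rounding and the unknown depth limit the ratios of Becn1, Ulk1 and Wipi2 most.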
